A study of Mus musculus with 120 samples.

Results

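The 10-week cortex of 175QK772T knock-in mice was compared with that of 175Q knock-in mice across all genes, using the 8 of the 120 libraries of the series that the labels give as 10-week cortex of these genotypes. Each library came from 1 mouse, with 4 mice per genotype. Both knock-in lines carry 1 mouse Atxn1 allele with an expanded glutamine-coding CAG repeat beside 1 normal allele (175QK772T/2Q and 175Q/2Q), as a model of spinocerebellar ataxia type 1. In 175QK772T the expanded allele also carries K772T, an amino acid change that alters the protein's nuclear localization signal. The 175QK772T group held 3 females and 1 male, and the 175Q group 2 females and 2 males. WT values from 4 mice of the same age (2 females and 2 males) are given for scale. All mice were C57BL/6J, and as knock-ins the alleles are driven by the gene's own promoter in every tissue. The comparison addresses what the cortical transcriptome of mice with the expanded allele looks like when the localization signal is altered.

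Ataxin-1 is a nuclear and cytoplasmic protein that binds RNA and forms a repressor complex with the transcription factor capicua. With an expanded glutamine tract it accumulates in neuronal nuclei, and its import into the nucleus depends on a short basic signal near its C terminus. The cerebral cortex consists of layered excitatory neurons, GABAergic interneurons, astrocytes, which clear glutamate and buffer potassium, and oligodendrocytes, microglia and vascular cells.

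Libraries of the 10-week cortex held 72.9 to 101 M counted read pairs (12 libraries, WT included). Mitochondrial genes took 5.17 to 5.48% of them in 175QK772T, 4.79 to 5.03% in 175Q and 4.98 to 5.51% in WT, so the shares of 175QK772T and 175Q did not overlap, and the part of this in the results was not tested. Values are given as CPM, read counts scaled to library size with TMM factors, listed by replicate 1 to 4. The knock-in gene was looked at first: Atxn1 (ENSMUSG00000046876, chr13:45549755-45965008, minus strand, GRCm38) was at 123, 116, 119 and 123 CPM in 175QK772T, against 117, 111, 113 and 108 CPM in 175Q, with 107, 105, 103 and 102 CPM in WT. The gene's reads come from both alleles, so they do not separate the K772T allele from the normal one. Its difference between 175QK772T and 175Q did not pass the test (log2 fold change 0.10 ± 0.036, adjusted p = 0.195, edgeR). The excitatory neuron list summed to 5504 to 5661 CPM in 175QK772T, 5248 to 5413 CPM in 175Q and 7886 to 8211 CPM in WT. The striatal list summed to 235.7 to 302.3 CPM over all 12 libraries. The lists hold different genes and no other region is set beside them, so these sums do not show how clean the dissection was. A pair of libraries, below called those that stood apart, was picked after the data were seen. In 175QK772T replicate 4 the 10 choroid plexus and ependyma genes summed to 806.7 CPM, against 17.6 to 32.9 CPM in the other 175QK772T libraries and 13.3 to 32.2 CPM in 175Q. In 175Q replicate 4 the 19 immediate early genes, which respond to neuronal activity, summed to 585.6 CPM, against 781.6 to 1412 CPM in the other 175Q libraries and 1153 to 1524 CPM in 175QK772T. This sum was the lowest of a wide spread (976.6, 1412 and 781.6 CPM in 175Q replicates 1 to 3). It did not exceed the critical value for outliers used below. The labels treat mice as separate animals, and p-values rest on the spread between these 4 mice per genotype.

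Few genes differed between 175QK772T and 175Q cortex, and most of those that did were slightly higher in 175QK772T. With edgeR's quasi-likelihood test over 12 libraries and a term for sex, 301 of 20748 genes tested (1.45%) passed an adjusted p of 0.05, of which 205 (0.988%) were higher and 96 (0.463%) lower in 175QK772T. The values of the 4 and 4 mice did not overlap for 276 of the 301. Over all genes tested, 4.18% had all 175QK772T values higher and 4.88% all of them lower. The called differences were small: the median log2 fold change was 0.24 among those called higher and -0.18 among those called lower, and 273 of the 301 were under 0.5 in size. A log2 fold change of 1 in size was reached by 13, 6 of them higher and 7 lower. The median over all genes tested was 0.00.

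For scale, 175QK772T differed from WT in 5411 genes (26.1%), 2479 of them higher (11.9%) and 2932 lower (14.1%), and 175Q from WT in 7939 genes (38.3%), 3868 higher (18.6%) and 4071 lower (19.6%). The comparisons share libraries, so their gene lists are not set against each other and the values are given side by side. The count of 301 depended on single mice. It was 151, 113 and 165 without 175QK772T replicate 1, 2 or 3 and 71, 86 and 138 without 175Q replicate 1, 2 or 4, while it was 250 without 175QK772T replicate 4 and 338 without 175Q replicate 3. Without both libraries that stood apart it was 169, of which 134 were higher and 35 lower. Of that pair, 175QK772T replicate 4 was the only male of its group. Fits without it set 3 female 175QK772T mice against 175Q mice of both sexes. Their term for sex rests on 175Q and WT mice alone, so sex and library are not separated there. Of 46 called genes named by rule, 16 kept their call under all 20 other settings tried: Adcy1, Camk2a, Dkkl1, En2, Glul, Grm2, Nfya, Ntn5, Pax2, Rspo1, Slc1a2, Slc1a3, Slc7a10, St6galnac2, Tal1 and Twist1. Leaving out a single 175QK772T or 175Q library took the call from 12 to 23 of the 46, and no direction was reversed.

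**Figure D1:**
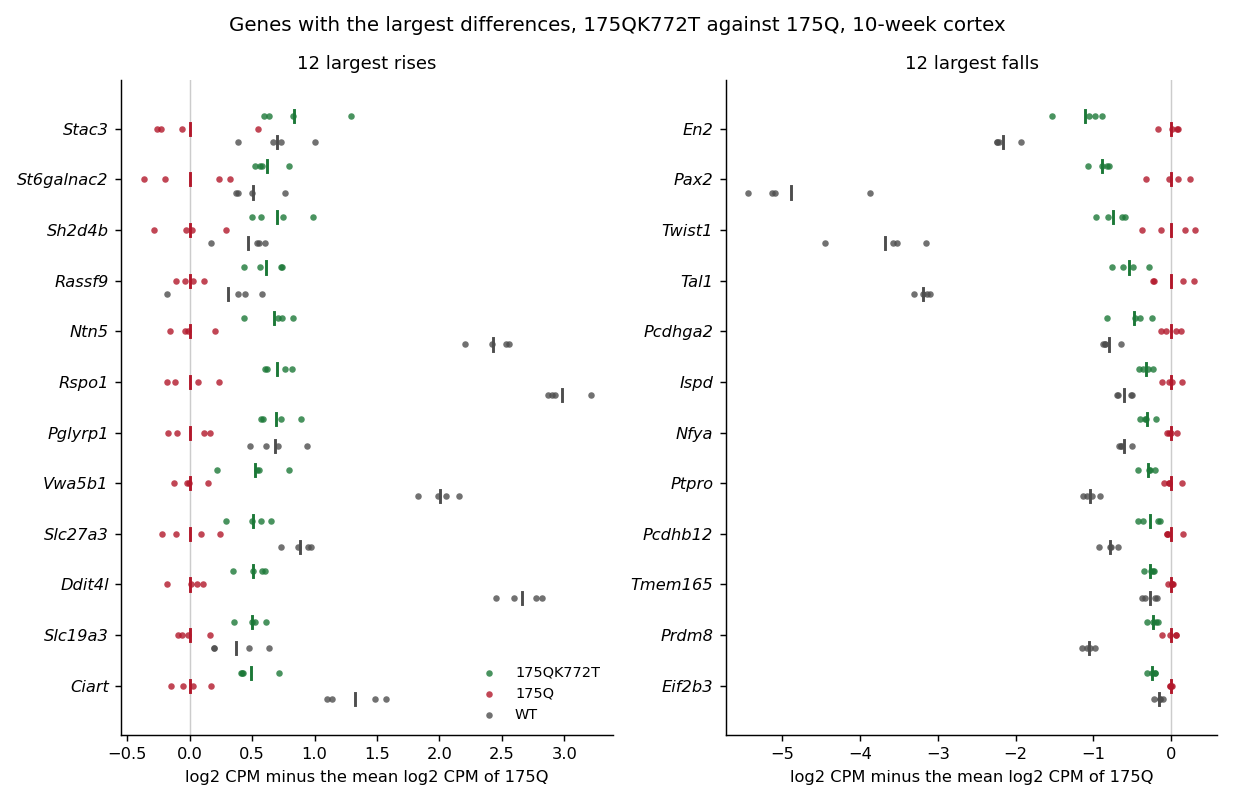
Log2 CPM of each library, minus the mean of the 4 175Q libraries, for the 12 genes with the largest rise (left) and the 12 with the largest fall (right) among called genes whose mean was 1 CPM or more and whose values did not overlap. Each row shows 175QK772T above 175Q above WT, with 1 point per mouse and a bar at the mean. En2 and Rspo1, at log2 fold changes of -1.09 and 0.66, are among the widest separations.

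Astrocyte genes were higher in 175QK772T than in 175Q. Of 16 astrocyte markers tested, 10 rose, none fell and all 16 had a positive log2 fold change, with a median of 0.20 against 0.00 over all genes tested. Of all genes tested, 0.988% were called higher. Summed over the list, the level was 7158 to 7728 CPM in 175QK772T, 6023 to 6392 CPM in 175Q and 8508 to 9195 CPM in WT. The list's median log2 fold change was -0.23 in 175QK772T against WT and -0.40 in 175Q against WT. In bulk tissue, fewer cells of a type and less RNA per cell cannot be told apart.

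Slc1a2, the main glutamate transporter of astrocytes (ENSMUSG00000005089, chr2:102658659-102790784, plus strand), was at 3207, 3266, 3464 and 3062 CPM in 175QK772T, against 2606, 2612, 2695 and 2760.1 CPM in 175Q. All 4 175QK772T values lay above the highest 175Q value and below the lowest WT value of 3831 CPM (log2 fold change 0.28 ± 0.037, adjusted p = 0.000979). Glul, glutamine synthetase, which turns glutamate into glutamine (ENSMUSG00000026473, chr1:153899944-153909723, plus strand), was at 1377, 1359.7, 1391 and 1383 CPM in 175QK772T, against 1095, 1194, 1199 and 1191 CPM in 175Q. Replicate 1 was the lowest of the 175Q libraries, and the groups did not overlap (log2 fold change 0.24 ± 0.035, adjusted p = 0.00264). The other glial glutamate transporter, Slc1a3, averaged 589.6 ± 27.8 CPM in 175QK772T and 496 ± 20.5 CPM in 175Q (mean ± SD, n = 4 each; log2 fold change 0.24 ± 0.039, adjusted p = 0.00585). Slc7a10, an amino acid transporter of astrocytes, averaged 30.9 ± 0.823 CPM in 175QK772T and 25.6 ± 0.918 CPM in 175Q (log2 fold change 0.28 ± 0.044, adjusted p = 0.00361). Aldh1l1, a folate enzyme that marks astrocytes, averaged 63.1 ± 3.92 CPM in 175QK772T and 52.3 ± 1.84 CPM in 175Q (log2 fold change 0.27 ± 0.048, adjusted p = 0.00849). The others called were the gap junction gene Gja1 (0.25), the GABA transporter Slc6a11 (0.21), the receptor gene Ntsr2 (0.21), the bicarbonate transporter Slc4a4 (0.19) and the sodium pump subunit Atp1b2 (0.14). The 6 that did not pass were Aldoc (0.17), Aqp4 (0.20), Sox9 (0.19), S100b (0.16), Gjb6 (0.15) and Gfap (0.09), the last a filament protein of reactive astrocytes with values of 102, 109, 102 and 117 CPM in 175QK772T, against 91.5, 112, 98.4 and 103 CPM in 175Q.

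The number of astrocyte markers called was 5 without 175Q replicate 1 and 6 without 175Q replicate 2, and 8 without both libraries that stood apart. Markers of other glia also lay on the positive side without passing the test. All 12 microglia markers had a positive log2 fold change (median 0.15; edgeR called 0, 10 had an unadjusted p under 0.05 and DESeq2 called 1, an unadjusted p under 0.05 being found for 3051 or 14.7% of all genes tested), and their sum was 488.8 to 527.5 CPM in 175QK772T and 446.1 to 481.4 CPM in 175Q, with no overlap. All 15 oligodendrocyte markers were likewise positive (median 0.17; edgeR called 0, 1 had an unadjusted p under 0.05 and DESeq2 called 0), with sums of 4607 to 6010 CPM in 175QK772T and 3814 to 5234 CPM in 175Q, which overlap. The oligodendrocyte median was 0.27 without both libraries that stood apart. The part of either list in the astrocyte result was not tested.

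**Figure D2:**
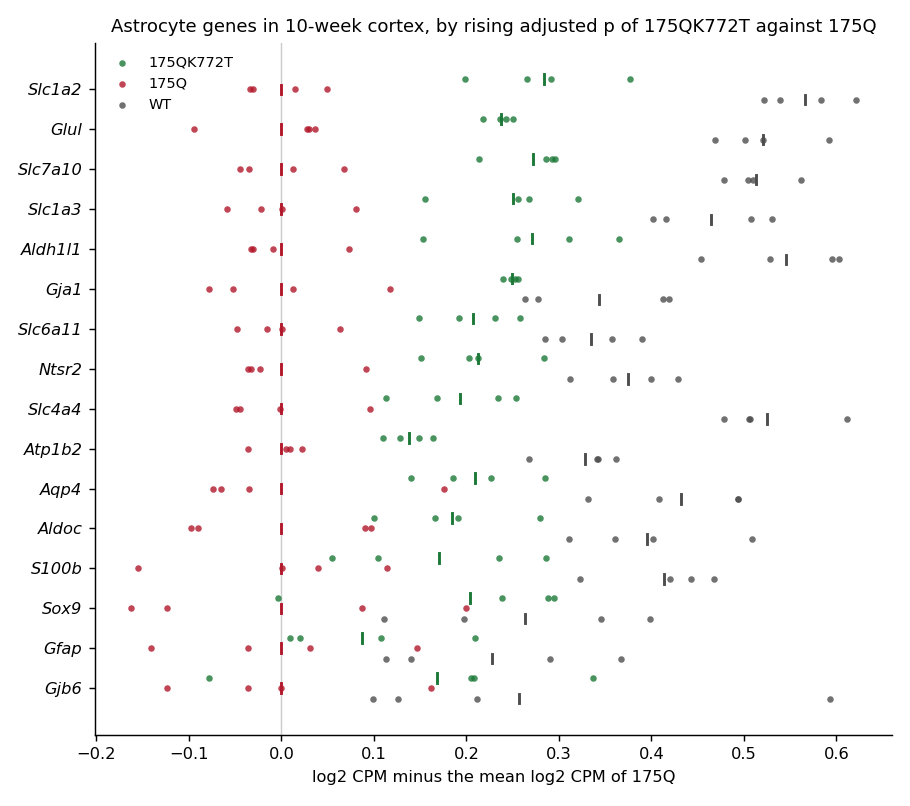
Log2 CPM of each library, minus the mean of the 4 175Q libraries, for the 16 astrocyte markers, ordered from the smallest adjusted p at the top. Each row shows 175QK772T above 175Q above WT, with 1 point per mouse and a bar at the mean, and Slc1a2 (log2 fold change 0.28) stands at the top.

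Dio2, the deiodinase with which astrocytes activate thyroid hormone, is in no list and was picked after its values were seen (ENSMUSG00000007682, chr12:90724552-90738438, minus strand). It was at 72.7, 78.3, 86.5 and 74.9 CPM in 175QK772T, against 53.9, 55.8, 58.4 and 62.1 CPM in 175Q, with 124 ± 5.99 CPM in WT. All 175QK772T values exceeded all 175Q values (log2 fold change 0.44 ± 0.057, adjusted p = 0.00174). Nwd1, also chosen after its values were seen as the gene of smallest p, averaged 109 ± 1.99 CPM in 175QK772T and 86 ± 2.41 CPM in 175Q (log2 fold change 0.34 ± 0.037, adjusted p = 0.000204).

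The promoters of 3 astrocyte genes are shown as context for these rises, from 250 bases before to 50 bases after the transcription start (RefSeq, GRCm38.p6, 5′ to 3′ on the gene's strand, with CpG dinucleotides in capitals). They cover chr2:102706188-102706487, plus strand for Slc1a2, chr12:16653220-16653519, plus strand for Ntsr2 and chr12:90738989-90739288, minus strand for Dio2.
Slc1a2: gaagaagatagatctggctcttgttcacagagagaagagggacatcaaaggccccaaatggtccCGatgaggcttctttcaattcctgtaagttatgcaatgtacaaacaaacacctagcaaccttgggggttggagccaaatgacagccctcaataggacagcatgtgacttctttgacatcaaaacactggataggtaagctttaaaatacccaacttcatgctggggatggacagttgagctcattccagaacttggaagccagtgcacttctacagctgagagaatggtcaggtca
Ntsr2: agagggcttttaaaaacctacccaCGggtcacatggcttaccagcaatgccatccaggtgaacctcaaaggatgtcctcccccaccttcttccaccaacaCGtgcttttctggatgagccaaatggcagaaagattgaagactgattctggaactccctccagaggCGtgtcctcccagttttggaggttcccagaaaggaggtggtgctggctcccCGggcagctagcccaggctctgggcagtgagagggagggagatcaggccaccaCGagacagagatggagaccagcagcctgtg
Dio2: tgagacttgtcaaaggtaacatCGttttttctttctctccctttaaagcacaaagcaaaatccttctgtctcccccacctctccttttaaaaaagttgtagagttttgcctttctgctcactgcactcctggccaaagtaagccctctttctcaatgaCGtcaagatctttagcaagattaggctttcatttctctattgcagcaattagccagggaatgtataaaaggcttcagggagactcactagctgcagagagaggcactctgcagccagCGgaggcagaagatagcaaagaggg
The RefSeq start of Dio2 lies apart from the end of its Ensembl gene model. The Slc1a2 window lies well inside its Ensembl gene model, which begins at chr2:102658659. Its CpG count may therefore not be that of the 5′ end of the gene. These windows held 1 CpG for Slc1a2, 5 for Ntsr2 and 3 for Dio2. The median over the 13 of 16 astrocyte markers with a listed promoter was 8, over 159 of the 205 genes called higher 17, over 75 of the 96 genes called lower 24 and over 13434 of the 20748 genes tested 19. The octamers TGAATGAA and TGAATGGA, which capicua binds, were searched on both strands. They were absent from these 3 windows. They were in 2 of 159 promoters of genes called higher (1.26%) and 2 of 75 of genes called lower (2.67%). Over all genes tested they were in 224 of 13434 (1.67%). By list, they were in 0 of 13 promoters of astrocyte markers, 0 of 20 of developmental transcription factors and 1 of 8 of capicua targets.

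In the lists of neuronal, receptor and signalling genes fewer members rose per list, and they came from several classes. Bulk tissue does not assign these rises to a cell type. Over all genes tested, 0.988% were called higher and 0.463% lower. Of 12 excitatory neuron markers 1 rose and 0 fell (median -0.03, or -0.06 without both libraries that stood apart, 3 positive). That gene was Camk2a, the alpha subunit of the calcium/calmodulin-dependent kinase of synapses (ENSMUSG00000024617, chr18:60925618-60988152, plus strand), at 2473, 2396, 2404 and 2319.9 CPM in 175QK772T, against 2124, 2123, 2144 and 2092 CPM in 175Q. The values did not overlap, and both stood below the WT mean of 3980.4 ± 85.3 CPM (log2 fold change 0.17 ± 0.029, adjusted p = 0.00696). Adcy1, a calcium-activated adenylyl cyclase, was the 1 gene called of 28 of cyclic nucleotide and G-protein signalling and averaged 1150.3 ± 31.8 CPM in 175QK772T and 1021 ± 18.4 CPM in 175Q (log2 fold change 0.17 ± 0.030, adjusted p = 0.00785). Of 22 glutamate receptor genes 2 rose and 0 fell (median 0.00). Grm2, a presynaptic metabotropic receptor (ENSMUSG00000023192, chr9:106643095-106656082, minus strand), was at 29.3, 30.9, 31.8 and 30.5 CPM in 175QK772T, against 24.2, 23.2, 24.8 and 24 CPM in 175Q. The spread within each genotype was narrow (log2 fold change 0.37 ± 0.045, adjusted p = 0.000865, WT 67 ± 4.18 CPM). Grin2c, an NMDA receptor subunit, averaged 51.4 ± 2.75 CPM in 175QK772T and 45.7 ± 3.79 CPM in 175Q with overlapping values (log2 fold change 0.19 ± 0.048, adjusted p = 0.0472).

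Of 18 GABAergic neuron markers, 3 rose, 0 fell and 17 were positive, with a median of 0.11. Gad1, a GABA-synthesizing enzyme, averaged 249 ± 14.7 CPM in 175QK772T and 227 ± 11.7 CPM in 175Q with some overlap (log2 fold change 0.16 ± 0.039, adjusted p = 0.0488). Npy, a neuropeptide of interneurons, was at 41.2, 42.1, 41.7 and 42 CPM in 175QK772T, against 30.9, 37.4, 39.4 and 36.2 CPM in 175Q, with 175Q replicate 1 the lowest value (log2 fold change 0.24 ± 0.051, adjusted p = 0.0215). Other subtype genes were positive without passing, such as Sst at 0.26 and Pvalb at 0.24. Of 22 neuropeptide genes 2 rose (Npy and the opioid precursor Pdyn, 0.33) and 0 fell. Of 46 potassium channel genes 3 rose and 0 fell (median 0.03): Kcnk4 (0.29), Kcnh4 (0.31) and the astrocytic channel Kcnj10 (0.28). Of all genes tested, 0.988% were called higher and 0.463% lower. The number of GABAergic markers called was 1 without 175QK772T replicate 2 or 3, 175Q replicate 4 or both libraries that stood apart. The number of potassium channels called was 0 without 175QK772T replicate 2 or 4 or 175Q replicate 1, or without both libraries that stood apart, and 1 without 175QK772T replicate 3 or 175Q replicate 2. The number of neuropeptide genes called was 0 or 1 when any single 175QK772T or 175Q library was left out. Grin2c lost its call without 175QK772T or 175Q replicate 1, 2 or 4 or WT replicate 1 or 4.

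Of 14 genes of layers 2 to 4, 2 rose and 0 fell (median 0.08, or 0.05 without both libraries that stood apart). Rspo1, a secreted enhancer of Wnt signalling (ENSMUSG00000028871, chr4:124986430-125009099, plus strand), was at 4.52, 4.1, 4.71 and 4.05 CPM in 175QK772T, against 2.35, 3.14, 2.47 and 2.79 CPM in 175Q. The 175QK772T values were all above the 175Q values and far below WT at 21.1 ± 2.41 CPM (log2 fold change 0.66 ± 0.10, adjusted p = 0.00264). Dkkl1, a secreted protein named for its likeness to the dickkopf Wnt inhibitors, averaged 11.9 ± 1.11 CPM in 175QK772T and 8.87 ± 0.801 CPM in 175Q (log2 fold change 0.42 ± 0.074, adjusted p = 0.00812). Other genes of these layers had overlapping values, such as Lamp5 (0.28, adjusted p = 0.144) and Cux2 (0.10, adjusted p = 0.252). No gene of 13 of layer 5 or of 13 of layer 6 was called in either direction. Their unadjusted p was under 0.05 for 1 gene of layer 5 and 5 of layer 6, and DESeq2 called 0 of layer 5 and 0 of layer 6. Of all genes tested, 14.7% had an unadjusted p under 0.05 and 0.988% were called higher.

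The 12 largest rises were Stac3 (0.75), an adaptor of muscle calcium channels, St6galnac2 (0.70), a sialyltransferase, Sh2d4b (0.69), Rassf9 (0.67), Ntn5 (0.67), Rspo1 (0.66), Pglyrp1 (0.65), a peptidoglycan-binding protein, Vwa5b1 (0.56), Slc27a3 (0.51), of the fatty acid transporter family, Ddit4l (0.51), Slc19a3 (0.49) and Ciart (0.45) on the log2 scale. Several were low in 175Q compared with WT. Ntn5, a member of the netrin family of guidance cues, was at 3.28, 3.96, 4.06 and 4.31 CPM in 175QK772T, against 2.79, 2.37, 2.18 and 2.41 CPM in 175Q, with 13.1 ± 1.41 CPM in WT. Ddit4l, an inhibitor of mTOR signalling, was at 10.3, 12.1, 12.3 and 11.5 CPM in 175QK772T, against 8.42, 7.15, 8.71 and 8.13 CPM in 175Q, with 51.3 ± 5.95 CPM in WT. In both genes the 175QK772T values lay nearer to the 175Q values than to the WT values (log2 fold change 0.67 ± 0.11, adjusted p = 0.00585 for Ntn5; log2 fold change 0.51 ± 0.093, adjusted p = 0.0172 for Ddit4l). Ciart, a repressor of the circadian clock, was at 10.6, 8.65, 8.63 and 8.73 CPM in 175QK772T, against 6.25, 6.6, 5.84 and 7.28 CPM in 175Q (log2 fold change 0.45 ± 0.10, adjusted p = 0.0301), with replicate 1 standing above the other 175QK772T libraries. Slc19a3, the thiamine transporter, averaged 3.87 ± 0.274 CPM in 175QK772T and 2.74 ± 0.22 CPM in 175Q (log2 fold change 0.49 ± 0.12, adjusted p = 0.0474).

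Transcription factors of embryonic patterning, which are mostly kept silent in adult forebrain, were lower in 175QK772T than in 175Q where they passed the test. Of 70 in the list, 32 had enough reads to be tested, 4 fell and none rose, 25 were negative and the median log2 fold change was -0.33. Of all genes tested, 0.463% were called lower. For this list, the median between genotypes and WT is given next. The median in 175QK772T against WT was 0.79 and in 175Q against WT 0.89. Their sum was 107.3 to 115.3 CPM in 175QK772T, 123.1 to 136.2 CPM in 175Q and 63.3 to 65.3 CPM in WT. The other 38 listed had too few reads, and a gene could enter the test through the group where it was high.

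En2, an engrailed homeobox factor of the midbrain and hindbrain (ENSMUSG00000039095, chr5:28165694-28172166, plus strand), was at 1.01, 1.57, 1.4 and 1.47 CPM in 175QK772T, against 3.08, 3.06, 2.92 and 2.58 CPM in 175Q, with 0.653 ± 0.0721 CPM in WT. The 175QK772T values were all under the lowest 175Q value of 2.58 CPM (log2 fold change -1.09 ± 0.16, adjusted p = 0.00186). Pax2, a paired-box factor of the midbrain-hindbrain boundary (ENSMUSG00000004231, chr19:44756045-44837871, plus strand), was at 1.97, 2.32, 2.38 and 2.23 CPM in 175QK772T, against 4.39, 4.88, 4.05 and 3.3 CPM in 175Q, with 0.153 ± 0.0864 CPM in WT. The groups did not overlap, and 175Q replicate 4 was the lowest of its group (log2 fold change -0.96 ± 0.16, adjusted p = 0.00667). Twist1, a basic helix-loop-helix factor of mesenchyme (ENSMUSG00000035799, chr12:33957671-33959829, plus strand), was at 4.31, 3.78, 4.42 and 3.41 CPM in 175QK772T, against 7.57, 8.25, 6.11 and 5.14 CPM in 175Q, with 0.546 ± 0.183 CPM in WT. Again no values overlapped (log2 fold change -0.86 ± 0.13, adjusted p = 0.00232). Tal1, a regulator of blood formation and of some hindbrain and midbrain neurons (ENSMUSG00000028717, chr4:115056426-115071755, plus strand), was at 11.2, 10.3, 13.1 and 9.39 CPM in 175QK772T, against 19.4, 17.7, 13.5 and 13.6 CPM in 175Q, with 1.74 ± 0.106 CPM in WT. Its highest 175QK772T value lay just under its lowest 175Q value (log2 fold change -0.61 ± 0.089, adjusted p = 0.00232). Pou4f1, a factor of sensory neurons, was at 2.76, 3.88, 3.21 and 2.7 CPM in 175QK772T, against 4.99, 5.86, 5.13 and 5.1 CPM in 175Q, with 0.0592 ± 0.0639 CPM in WT, and did not pass (log2 fold change -0.76 ± 0.19, adjusted p = 0.0641). The same 4 genes passed without either library that stood apart or both, and the number called over all settings was 4 to 6.

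The Twist1 promoter is shown as an example of a gene that fell (chr12:33957421-33957720, plus strand, the same window and capitals as above).
Twist1: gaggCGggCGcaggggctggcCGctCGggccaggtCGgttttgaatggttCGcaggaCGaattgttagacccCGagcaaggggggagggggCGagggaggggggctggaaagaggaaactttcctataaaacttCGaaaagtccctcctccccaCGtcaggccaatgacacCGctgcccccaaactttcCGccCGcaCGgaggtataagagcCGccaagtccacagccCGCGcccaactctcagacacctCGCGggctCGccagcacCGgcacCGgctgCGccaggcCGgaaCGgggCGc
It held 27 CpGs, above the median of 17.5 over the 20 of 32 tested factors with a listed promoter and the median of 19 over all genes, and no capicua octamer. The astrocyte windows above each lay under their list's median of 8, so the windows shown do not stand for their lists.

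**Figure D3:**
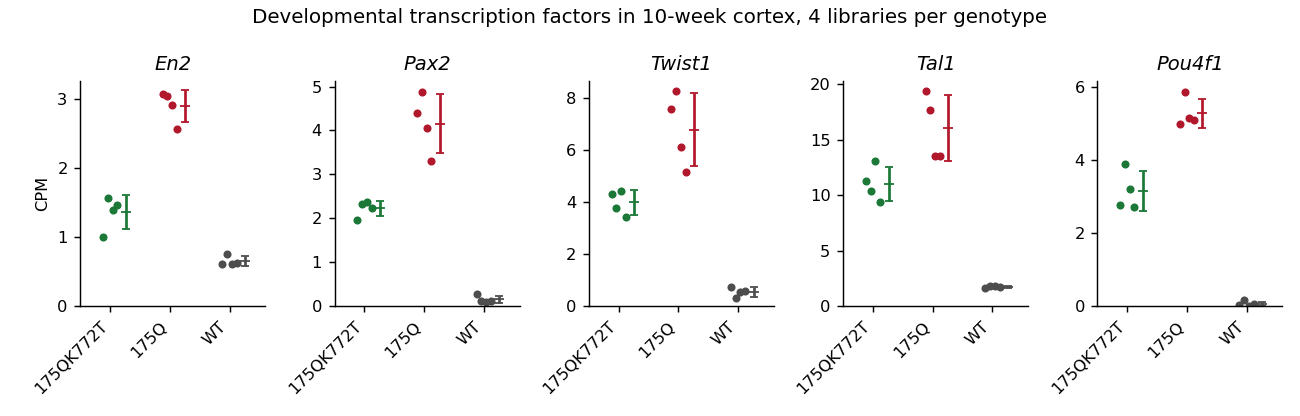
CPM of En2, Pax2, Twist1, Tal1 and Pou4f1 in 10-week cortex, with 1 point per mouse and the mean ± SD at the right of each group (n = 4). In every panel the 4 175QK772T values lie under the 4 175Q values and above the 4 WT values.

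Nfya, the regulatory subunit of the DNA-binding complex NF-Y (ENSMUSG00000023994, chr17:48386885-48409906, minus strand), was at 29, 31.9, 28.8 and 27.5 CPM in 175QK772T, against 38.3, 35.8, 36.2 and 35.1 CPM in 175Q, with 23.8 ± 1.3 CPM in WT. The 175QK772T values were all lower (log2 fold change -0.32 ± 0.052, adjusted p = 0.00572). The remaining large falls were of other kinds: Pcdhga2 (-0.46) and Pcdhb12 (-0.30), protocadherins of clusters of near-identical genes whose read assignment is uncertain, Ispd (-0.34), an enzyme of dystroglycan glycosylation, Ptpro (-0.32), a receptor tyrosine phosphatase, Tmem165 (-0.24), a Golgi ion transporter, Prdm8 (-0.24), a histone methyltransferase-like repressor of neurons, and Eif2b3 (-0.24), a subunit of a translation initiation factor. Of 17 chaperone genes 3 fell and 0 rose (median 0.00), 0.463% of all genes tested being called lower. Hsp90aa1, the inducible HSP90, was at 954, 1001, 1067 and 1012 CPM in 175QK772T, against 1169.8, 1242, 1138 and 1149 CPM in 175Q, with 837 ± 42.7 CPM in WT (log2 fold change -0.22 ± 0.042, adjusted p = 0.00972). The mitochondrial chaperonin Hspd1 averaged 148 ± 7.97 CPM in 175QK772T and 166 ± 6.12 CPM in 175Q (log2 fold change -0.18 ± 0.038, adjusted p = 0.0191) and the constitutive Hsp90ab1 averaged 1526 ± 26.7 CPM in 175QK772T and 1667 ± 15.2 CPM in 175Q (log2 fold change -0.13 ± 0.030, adjusted p = 0.039). The count of chaperones called was 0 without 175Q replicate 2 and 1 without 175QK772T replicate 1 or 4, 175Q replicate 4 or both libraries that stood apart.

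Genes for ataxin-1, its partners and capicua targets had few calls. Of 14 genes for ataxin-1 and its partners edgeR called 0 (2 had an unadjusted p under 0.05 and DESeq2 called 1), with a median of 0.00. Over all genes tested, edgeR called 0.988% higher and 0.463% lower, and 14.7% had an unadjusted p under 0.05. Of 15 genes repressed by capicua 1 rose (Shc3, 0.24, adjusted p = 0.04998) and 0 fell, 13 were positive and the median was 0.19, the median being -0.12 in 175QK772T against WT and -0.31 in 175Q against WT. Between 175QK772T and 175Q it was 0.12 without 175QK772T replicate 4 and 0.09 without both libraries that stood apart. Among them Etv4 was at 8.95, 11.3, 8.65 and 8.67 CPM in 175QK772T, against 7.29, 7.8, 8.34 and 8.24 CPM in 175Q and did not pass (adjusted p = 0.203). Of 22 Polycomb and related genes 1 rose, Cbx6 (0.16), and 0 fell (median -0.04). Shc3 lost its call without any 1 of 175QK772T replicates 1 to 3, 175Q replicates 1, 2 or 4 or WT replicates 2 to 4, and Cbx6 without 175QK772T replicate 1 or 2 or 175Q replicate 1 or 4. Immediate early genes had a median of 0.35, yet none of 19 was called by edgeR, none had an unadjusted p under 0.05 and DESeq2 called 0, and values spread widely: Arc was at 227, 191, 325 and 200.2 CPM in 175QK772T, against 119, 226, 88.6 and 25.5 CPM in 175Q (adjusted p = 0.406). The median was 0.21 without 175Q replicate 4, 0.17 without 175QK772T replicate 4 and 0.07 without both libraries that stood apart. The choroid plexus median of 0.77 was 0.14 without 175QK772T replicate 4, where the transthyretin gene Ttr was at 749 CPM, and none of the 10 genes was called (2 had an unadjusted p under 0.05, DESeq2 called 0).

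**Figure D4:**
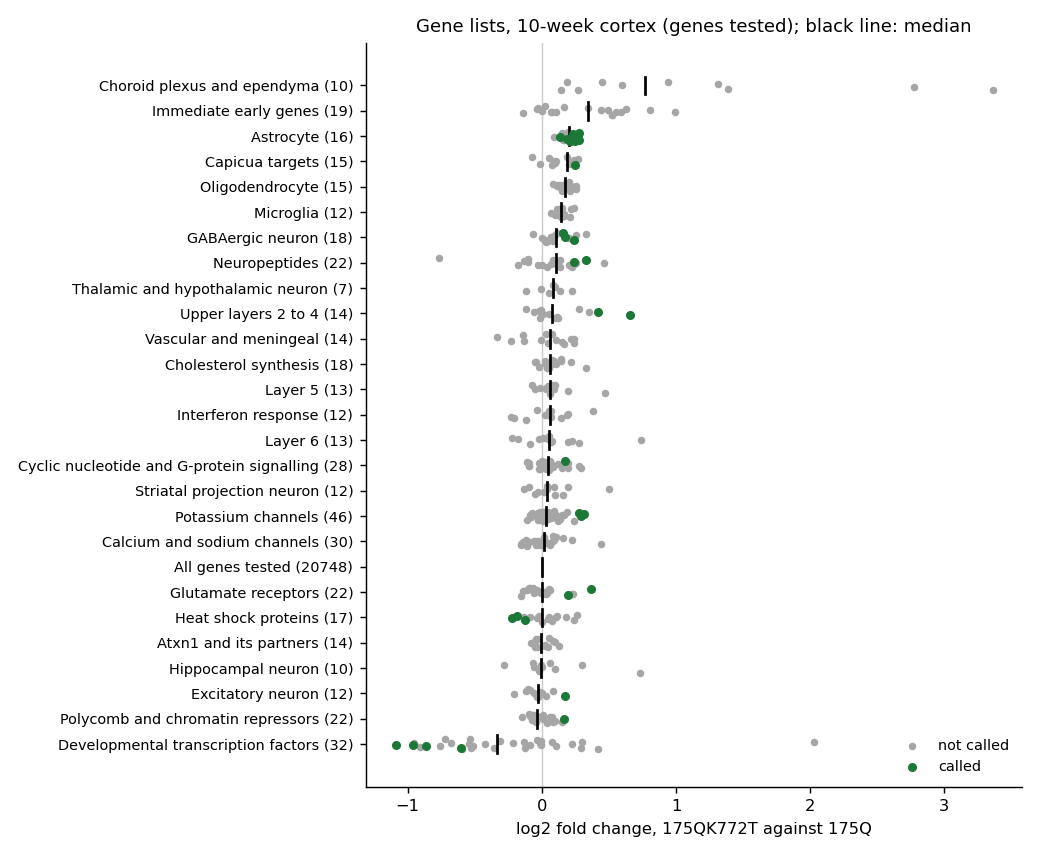
Log2 fold change of 175QK772T against 175Q for each tested member of the gene lists, with the number tested in brackets, green for called genes and grey for others, and a black line at the median. Astrocyte genes have 10 called members and a median of 0.20, developmental transcription factors have 4 called members and a median of -0.33, and all genes tested have a median of 0.00.

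At 26 weeks the same contrast was made in other mice (4 175QK772T and 4 175Q), sequenced as a separate batch at lower depth. One 26-week WT library, replicate 1, stands apart: its excitatory neuron genes summed to 1991 CPM, against 6882 to 7420 CPM in the other WT libraries, its oligodendrocyte genes to 15540 CPM, against 5474 to 6740 CPM, and its choroid plexus genes to 2812 CPM, against 15.9 to 53.9 CPM. Choroid plexus genes were also high in 175Q replicate 1, at 656.5 CPM against 13.9 to 21.3 CPM in the other 175Q libraries, and summed to 113.4 CPM in 175QK772T replicate 1, against 14.4 to 37.1 CPM in the other 175QK772T libraries. The WT library enters the contrast through the shared estimate of spread, the filter and the term for sex, and counts are given with it, without it, and without it and 175Q replicate 1. With it, 700 of 19888 genes were called (3.52%), 384 higher (1.93%) and 316 lower (1.59%). Without it 4803 of 20239 were called (23.7%), 2611 higher (12.9%) and 2192 lower (10.8%). Without it and 175Q replicate 1, 4397 of 20167 were called (21.8%), 2470 higher (12.2%) and 1927 lower (9.56%). With the WT library in the fit, leaving out single 26-week 175QK772T or 175Q libraries gave 138 to 325, with 259 without 175Q replicate 1 and 180 without 175QK772T replicate 1. Of the 301 genes called at 10 weeks 298 were tested, and 280 (94.0%) had the same sign, against 62.2% of the 19543 genes tested at both ages. The same direction was called for 57 with that library (19.1% of the 298 and 8.21% of the 26-week calls tested at both ages), 47 higher and 10 lower, and for 207 without it (69.5%, and 4.35% of the 26-week calls), 157 higher and 50 lower. Without it and 175Q replicate 1 the same direction was called for 201 (67.4%), 47 of them lower. The opposite direction was called for 1 (Ciart) with WT replicate 1 and for 3 (Ciart, Prdm8 and Basp1) without that library, Basp1 being named after its values were seen.

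For named genes the 26-week values were as follows. Dio2 was at 61.4, 55.6, 52.9 and 47.5 CPM in 175QK772T, against 23.5, 30.4, 28.7 and 32.1 CPM in 175Q (log2 fold change 0.92, adjusted p = 0.0522 with WT replicate 1 and 1.64e-07 without it). Slc1a2 was at 2819, 3078, 3201 and 3169 CPM in 175QK772T, against 2146, 2294, 2358 and 2169.8 CPM in 175Q (0.45, adjusted p = 0.122 and 1.56e-07). Twist1 was at 14.2, 13.9, 9.6 and 10.6 CPM in 175QK772T, against 13.5, 12.3, 15.2 and 14.9 CPM in 175Q (-0.23, adjusted p = 0.479 and 0.149). The list median at 26 weeks was 1.03 for immediate early genes, 0.63 for neuropeptides, 0.52 for capicua targets and 0.45 for excitatory neuron genes, against -0.01 over all genes. It was 0.41 for genes of layers 2 to 4, 0.34 for layer 6, 0.31 for layer 5 and 0.30 for potassium channels. It was 0.24 for astrocyte genes, 0.23 for GABAergic neuron genes, 0.23 for microglia genes and -0.33 for developmental transcription factors. Without WT replicate 1 the median was 1.02 for immediate early genes, 0.63 for neuropeptides, 0.53 for capicua targets, 0.45 for excitatory neuron genes, 0.23 for astrocyte genes and -0.29 for the factors. Without it and 175Q replicate 1 the median was 0.96 for immediate early genes, 0.65 for neuropeptides, 0.56 for capicua targets, 0.48 for excitatory neuron genes, 0.24 for astrocyte genes and -0.30 for the factors. The choroid plexus median was -0.58, -0.40 without WT replicate 1 and 0.29 without it and 175Q replicate 1.

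**Figure D5:**
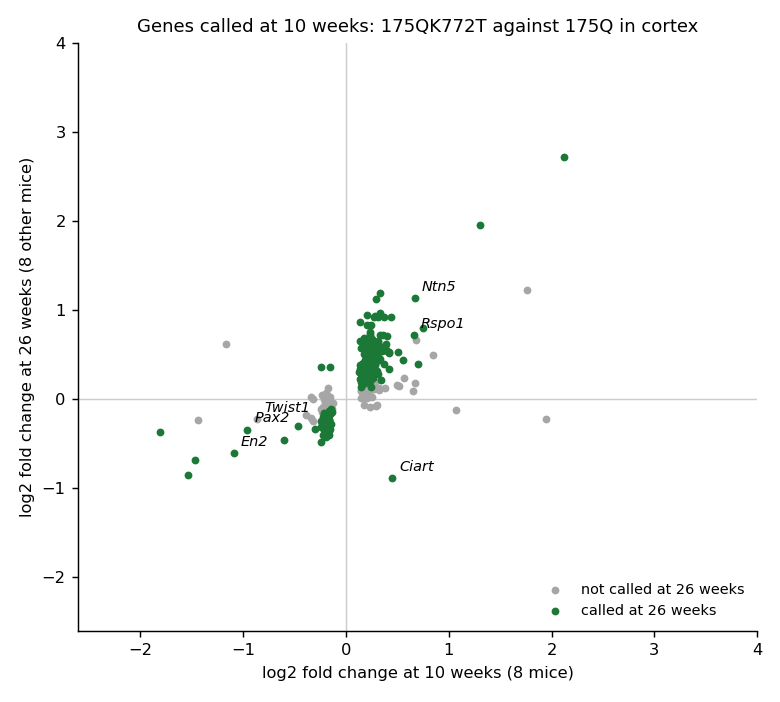
Log2 fold change of 175QK772T against 175Q at 10 weeks (8 mice, x axis) and at 26 weeks (8 other mice, y axis, without WT replicate 1) for the 298 genes called at 10 weeks and tested at both ages. Green points are called at 26 weeks, and Ciart (0.45 at 10 weeks) is below 0 at 26 weeks, apart from most genes called higher.

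The difference between the ages was tested as an interaction. It was called for 77 of 21678 genes (0.355%). The signed log2 fold change was higher at 10 weeks for 23 and lower for 54, whichever age had the larger change in size. Of the 77, 3 were among the 301 (Ciart, Barx1 and the opioid receptor gene Oprd1, the last pair named after their values were seen). Leaving out single 10-week 175QK772T or 175Q libraries gave 23 to 80. Without 26-week WT replicate 1 the interaction was called for 1570 of 22523 genes (6.97%), of which 77 were among the 301. The signed log2 fold change was then higher at 10 weeks for 422 (1.87%) and lower for 1148 (5.1%). Lamp5, Tesc, Fjx1 and Rgs2 rose in 175QK772T at 26 weeks and did not pass the test at 10 weeks. Lamp5 had a log2 fold change of 0.28 at 10 weeks and 1.20 at 26 weeks (interaction adjusted p = 0.000378). Tesc, a calcineurin-like calcium-binding protein, had -0.00 at 10 weeks and 1.01 at 26 weeks. Fjx1 had -0.01 at 10 weeks and 0.88 at 26 weeks, and Rgs2, an inhibitor of G-protein signalling, 0.08 and 0.61. Ciart rose at 10 weeks and fell at 26 weeks, with 0.45 at 10 weeks and -0.88 at 26 weeks (interaction adjusted p = 0.00569), and Rnpc3, a minor spliceosome protein, had -0.02 at 10 weeks and fell at 26 weeks with -0.54. Each of these 6 interactions was called under all 13 other settings.

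The other forebrain regions came from the same 10-week mice. No gene's difference differed between cortex and hippocampus by edgeR (0 of 21989; 1406 had an unadjusted p under 0.05), with 1 gene without 175Q replicate 4. Of 297 cortical genes tested in hippocampus, 5 were called there in the same direction (Dio2, Twist1, Luzp2, Basp1 and Ddn, named after their values were seen). Of all 20748 genes tested in cortex, 10 were called in hippocampus. Between cortex and striatum 58 of 22077 genes (0.263%) differed, 4 with the higher signed log2 fold change in cortex and 54 with the lower. With single 175QK772T or 175Q mice left out the count was 12 to 161, the lowest without 175Q replicate 3 and the highest without 175QK772T replicate 4. Of 298 cortical genes tested in striatum, 25 were called there in the same direction. Of all 20748 genes tested in cortex, 136 were called in striatum.

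The striatal interaction held genes that did not pass in cortex. Of the 5 named first, Kcnv1, Gsg1l, Synpr and Slc8a2 rose in 175QK772T striatum, and Hrk did not pass there (adjusted p = 0.0552). Hrk, a proapoptotic BH3-only protein, had a log2 fold change of -0.05 in cortex and 0.74 in striatum. Kcnv1, a silent potassium channel subunit, had 0.08 in cortex and 0.55 in striatum, Gsg1l, an AMPA receptor auxiliary subunit, 0.07 and 0.71, Synpr, a synaptic vesicle protein, -0.07 and 0.45, and Slc8a2, a sodium-calcium exchanger, 0.02 and 0.38. Of the 301 cortical genes 2 differed from striatum: Vwa5b1, with 0.56 in cortex and -1.01 in striatum (striatal adjusted p = 0.149), and Tal1, with -0.61 in cortex and 0.37 in striatum (striatal adjusted p = 0.565, interaction adjusted p = 0.0321), which was called in 3 of 12 other settings. Twist1 had a log2 fold change of -0.86 in cortex and -1.27 in hippocampus, where it was called (adjusted p = 0.00928).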

How the data were processed

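Cortical RNA of C57BL/6J mice was poly(A)-selected and read as 150-nucleotide pairs on a NovaSeq, with the 10-week and 26-week mice as separate batches, as the labels' protocols state. Demultiplexing used bcl2fastq 2.20.0, trimming Trimmomatic 0.33, alignment to GRCm38 HISAT2 2.1.0 and counting featureCounts of Subread 1.6.2, per the submitters' processing notes. The authors deposited raw read-pair counts per gene, with no normalization. For 10 weeks, per the file headers, they used Ensembl release 97, a mapping quality of at least 10, both ends aligned and strand option 2; the 26-week file gives no command line. The labels' protocol names no step that marks strand, so counts of overlapping and antisense genes are uncertain. In the 26-week descriptions the line appears as 154Q and 154QKT; groups follow the genotype field.

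Genes were kept by filterByExpr with genotype as the group, scaled by TMM and fitted with edgeR 4.0.16 (R 4.3.3, limma 3.58.1) by the robust quasi-likelihood method, with the 12 libraries of all 3 genotypes in 1 fit and a term for sex. Called genes had an adjusted p (Benjamini-Hochberg, over all genes tested) below 0.05. Interactions with age used 24 cortex libraries with sex within age. Interactions with region used 24 libraries with the mouse as a block and no term for sex by region. The ± after a log2 fold change is its standard error and after a mean the SD of 4 mice. Named genes were Atxn1, the 12 largest rises and 12 largest falls among called genes averaging 1 CPM or more over the 8 libraries with no overlap, up to 5 members of smallest adjusted p per described list and up to 5 called genes of smallest p per interaction, leaving out chromosome Y genes, Xist and Tsix, Gm-number and Rik symbols, and unnamed genes. An item that the rule names is not reported here. Further genes are marked as chosen after their values were seen, and further list members are given for completeness. The comparison, the 26 gene lists (451 of 495 genes tested) and the alternatives were chosen with earlier results of these data known. Functions given for genes are general knowledge.

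Alternatives were DESeq2 1.42.0, RLE size factors, no filter on low counts, a mean of at least 1 CPM, no sex term, only the genotypes compared, a replicate block, each library left out, and, added after seeing the data, fits without the libraries that stand apart. On simulated data with 200 of 20748 genes changed, the 10-week fit recovered 50 of 50 genes raised by 1 and 46 of 50 lowered by 1 on the log2 scale, and 43 of 50 raised and 40 of 50 lowered by 0.5, with 17 calls among unchanged genes. With 200 genes changed by 0.25 it recovered 48 of 100 raised and 40 of 100 lowered, with 5 calls among unchanged genes. The changed genes were drawn only from those averaging at least 1 CPM, so recovery at lower counts was not tested. The smallest chi-square per degree of freedom between any pair of the 12 libraries was 8.31, so no library was a copy of another. The cortex libraries totalled 72.9 to 101 M counted pairs (10 weeks) and 28.0 to 55.5 M (26 weeks). No column of per-sample values was left unused.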

Additional observations from a re-analysis of the deposited data

Results flagged for a closer look

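Over 152 groups of 4 libraries, the gap between an extreme library and its nearest neighbour, divided by the range of the group, exceeded Dixon's 95% critical value in 9; chance flags about 1 in 20 groups. Ttr was highest in 175QK772T replicate 4 (0.98), at 749.5 CPM against 5.32 to 20.5 CPM in the other 175QK772T libraries, and so was the choroid plexus sum (0.981). The GABAergic neuron sum was also highest there (0.83), at 1386 CPM against 1304 to 1318 CPM. In 175QK772T replicate 1, Ciart was the highest value (0.949), at 10.6 CPM against 8.63 to 8.73 CPM, and Slc7a10 was the lowest (0.874), at 29.6 CPM against 31.1 to 31.4 CPM. In 175Q replicate 1, Glul was the lowest value (0.929), at 1095 CPM against 1191 to 1199 CPM, and Pcdhb12 the highest (0.946), at 16.5 CPM against 14.4 to 14.5 CPM. In 175Q replicate 2, Pou4f1 was the highest value (0.836), at 5.86 CPM against 4.99 to 5.13 CPM, and so was the sum of thalamic and hypothalamic genes (0.857), at 154.2 CPM against 149.3 to 150.0 CPM.

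For 13 genes the difference between 175QK772T and 175Q differed between groups by edgeR's interaction test. Taken as the 10-week minus the 26-week log2 fold change in cortex, it was -0.93 for Lamp5, -1.02 for Tesc, -0.89 for Fjx1, -0.53 for Rgs2, 0.52 for Rnpc3 and 1.33 for Ciart. Taken as the cortical minus the striatal log2 fold change at 10 weeks, it was -0.80 for Hrk, -0.65 for Gsg1l, -0.53 for Synpr, -0.49 for Kcnv1, -0.37 for Slc8a2, -0.93 for Tal1 and 1.48 for Vwa5b1.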

How the results depend on the processing

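The number of genes called between 175QK772T and 175Q at 10 weeks (301; 205 higher, 96 lower) stayed within 1.5 times with RLE size factors, a mean of at least 1 CPM, no sex term or only the 2 genotypes. It was 690 with DESeq2 (426 higher, 264 lower) and 938 with no filter on low counts (693 higher, 245 lower), and 169 without both libraries that stood apart (134 higher, 35 lower). With single libraries left out it ranged over 71 to 338, with 54 to 215 higher and 17 to 124 lower, fewer mice being part of each such fit. Replicate numbers are shared between genotypes but belong to different mice. Deviations of same-numbered 175QK772T and 175Q libraries correlated at 0.05, 0.04, -0.08 and 0.18, and not every library correlated best with its own number. The deviations were not adjusted for sex. The male 175QK772T replicate 4 correlated at 0.209 and 0.18 with 175Q replicates 3 and 4, both male. With 175Q replicates 1 and 2, both female, it correlated at -0.168 and -0.174. A replicate block gave 92 calls (77 higher, 15 lower). Counts against WT stayed within 1.5 times under all settings run. The 26-week counts ranged over 138 to 4803 with single libraries left out (88 to 2611 higher, 50 to 2192 lower), the highest without WT replicate 1, and were 4397 (2470 higher, 1927 lower) without that library and 175Q replicate 1. The interaction with age gave 77 genes, and 1775 with only the 175QK772T and 175Q mice. It gave 23 to 1570 with a single 10-week 175QK772T or 175Q library or 26-week WT replicate 1 left out, other libraries not being left out. The interaction with striatum gave 58 genes, 96 with only the 175QK772T and 175Q mice and 12 to 161 with single 175QK772T or 175Q mice left out. With a term for sex within each region in place of the mouse block it gave 15, and Hrk, Slc8a2, Tal1 and Vwa5b1 lost their calls. The interaction with hippocampus gave 0, and 0 to 1 with single 175QK772T or 175Q mice left out. The cause of these shifts was not tested. Genes of a few counts are limited by depth.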

Other observations

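Lists not described above had no called gene in 175QK772T against 175Q by edgeR. Of 30 calcium and sodium channel genes 9 had an unadjusted p under 0.05 (median log2 fold change 0.01), as did 14.7% of all genes tested, and DESeq2 called 0. Of 18 genes of cholesterol synthesis, which neurons and astrocytes make locally, 3 had an unadjusted p under 0.05 (median 0.06), and DESeq2 called 1. Of 12 interferon-stimulated genes 1 did (median 0.06, 0.01 without 175QK772T replicate 4, 0.02 without 175Q replicate 4 and -0.01 without both), and of 14 vascular and meningeal genes 2 did (median 0.06, 0.16 without 175QK772T replicate 4 and 0.17 without that library and 175Q replicate 4), with 0 called by DESeq2 in both. Markers of neighbouring tissue were compared between 175QK772T and 175Q as a check that dissection was alike. Striatal projection neuron genes summed to 265.5 to 285.2 CPM in 175QK772T and 277.2 to 288.3 CPM in 175Q, hippocampal genes to 99.0 to 111.5 CPM and 90.6 to 107.4 CPM, and thalamic and hypothalamic genes to 139.2 to 165.3 CPM and 149.3 to 154.2 CPM. Of these 12, 10 and 7 genes edgeR called 0, with an unadjusted p under 0.05 for 1, 1 and 0, and DESeq2 called 0.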
